A study of Mus musculus with 2 samples.

Results

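Mural cells, the pericytes and smooth muscle cells that wrap blood vessels, were examined in the postnatal mouse spinal cord. They were chosen in both libraries by the UMIs measured in each cell: a cell was counted as mural when it held a UMI (a tag of 1 captured RNA molecule) of 3 or more of the 9 genes Kcnj8, Abcc9, Higd1b, Atp13a5, Rgs5, Vtn, Pdgfrb, Acta2 and Myh11, and of at most 1 of the 7 genes Cldn5, Pecam1, Flt1, Dcn, Lum, Cx3cr1 and Pdgfra, which mark endothelial cells, fibroblasts, microglia and oligodendrocyte precursors. This rule found 399 of 17043 kept cells, 108 of 6787 in the library labelled SMA and 291 of 10256 in the library labelled Con. Since the rule reads these genes, their levels against other cells are given as a description.

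Both libraries came from whole spinal cords of FVB mice at postnatal day 4, dissociated with trypsin and collagenase. The SMA mice had the genotype mSmn-/-, hSMN22tg/0, the severe form of the Taiwanese model of spinal muscular atrophy, and the Con mice had mSmn+/-, hSMN22tg/0, so all animals carried the human SMN2 transgene and the controls had 1 intact mouse allele. Per the study's methods, 3 littermates were pooled in each library, so each group was 1 library without a replicate and no difference could be set against a spread between animals. Intervals are at the 95% level and cover counting error only. Smn1 gave 36 UMIs (54.0 CPM, the count per 1000000 UMIs summed over the cells) in the SMA mural cells and 89 (46.2 CPM) in the Con mural cells, a count that does not separate intact from disrupted alleles and so did not check the labels.

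Pericytes share the basement membrane of capillaries with the endothelium, receive platelet-derived growth factor from it through the receptor encoded by Pdgfrb, and contribute to the blood-brain and blood-spinal cord barriers. Smooth muscle cells ring arterioles and arteries and hold a contractile apparatus of smooth muscle actin (Acta2), smooth muscle myosin (Myh11), transgelin (Tagln) and tropomyosins, while cells between the extremes occur where arterioles pass into capillaries. Many contractile genes are switched on by serum response factor with its partner myocardin, through a promoter element called the CArG box.

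The SMA library held 26921 barcodes and the Con library 25419, of which 13296 and 10256 lay within the limits of 200 to 4000 genes and under 10% mitochondrial UMIs. The libraries had 8163 barcodes in common. Of barcodes with at least 5000 UMIs, 160 of 5750 in SMA and 7058 of 7131 in Con were shared, and shared SMA barcodes were left out, which gave the 6787 kept SMA cells. Median depth per mural cell was 5896 UMIs and 2199 genes in SMA and 6356 UMIs and 2364 genes in Con, with median mitochondrial shares of 7.97% and 7.63%. Xist, transcribed from the inactive X chromosome of female cells, gave 0 UMIs in the SMA mural cells and 937 in the Con mural cells (487 CPM, so at least 108-fold lower in SMA against a floor of 3 UMIs). In SMA, 45 mural cells held a Y-linked UMI and 0 held Xist, while in Con 138 held Xist only, 61 a Y-linked UMI only and 15 both, so X- and Y-linked transcripts differed between the libraries. The sexes of the pooled animals are not given in the sources used here, and over all mural cells sex and genotype cannot be told apart. Ratios against the 61 Con cells with a Y-linked UMI only are given at the end of the results.

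The label was set against a list of 30 further mural genes that the rule did not read. Their summed level was 6395 CPM in the mural cells and 350 CPM in the other kept cells of Con, and 6154 and 313 CPM in SMA. In Con, all 30 had at least 100 UMIs over the cells compared and were 2-fold or more higher in the mural cells than in the other kept cells, against 7.8% of all 13305 genes. In SMA, 24 of 24 were higher, against 6.89% of 13020 genes. Some of these genes reached the minimum through the mural cells alone, such as Slc38a11 with 160 UMIs in the mural and 10 in the other kept cells of Con, so nothing is read from these counts. Among the 10 genes highest against other kept cells were Mustn1, a small muscle protein (7.53 log2 in SMA and 7.21 in Con), Myl9, the regulatory light chain of smooth muscle myosin (7.11 and 7.02), and Foxs1, a forkhead factor (7.44 in Con). Rgs5, a brake on G protein signalling, had a UMI in 98.1% of SMA and 96.6% of Con mural cells, against 1.35% and 2.37% of microglia-like cells, a type that should lack it (median depth 6736 and 6777 UMIs).

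The 7 excluded genes were low in the mural cells by the rule, and their levels are a description. Cldn5, a tight junction protein of endothelium, gave 17 UMIs (25.5 CPM) in 1.85% of SMA and 14 UMIs (7.27 CPM) in 4.47% of Con mural cells, against 2788 and 3559 CPM in endothelial-like cells. Pecam1 gave 0 and 3 UMIs, and the fibroblast proteoglycan Lum 0 and 1 UMIs. Dcn, decorin of fibroblasts, gave 2 and 9 UMIs in the mural cells but 1185 and 2593 CPM in fibroblast-like cells. Flt1, an endothelial receptor, gave 4 and 36 UMIs and Pdgfra, of oligodendrocyte precursors, 23 and 65. Highest among the excluded genes was Cx3cr1 of microglia, at 94.5 CPM in SMA and 45.2 CPM in Con mural cells. Of longer marker lists, UMIs of 3 or more fibroblast genes were held by 22.2% of SMA and 15.8% of Con mural cells, and of 3 or more endothelial genes by 13.9% and 19.6%, and their part in the results below was not tested.

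**Figure D1:**
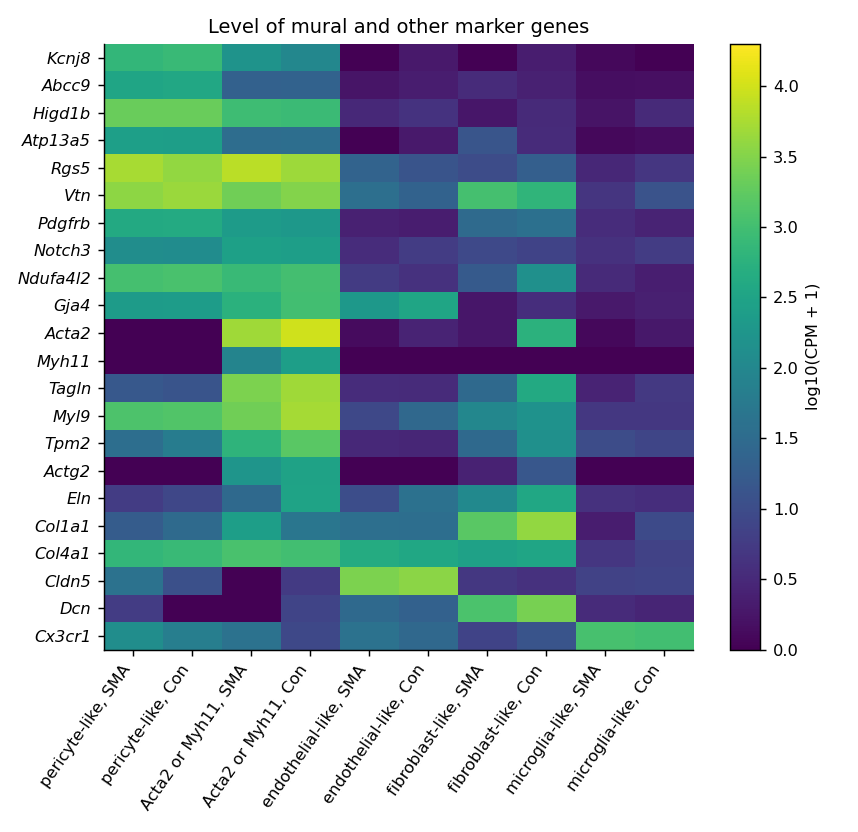
Summed level of 22 genes, as log10(CPM + 1) on the colour scale, in pericyte-like mural cells, mural cells with Acta2 or Myh11, and endothelial-like, fibroblast-like and microglia-like cells of each library, with 1 library per group. The 7 pericyte genes at the top are highest in the mural columns, with Vtn also bright in fibroblast-like cells (1081 CPM in SMA and 648 CPM in Con), and Acta2 is at 0 in pericyte-like cells by definition and is also seen in Con fibroblast-like cells (575 CPM).

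At the edge of the rule, cells with exactly 3 of the 9 genes were set beside cells that had exactly 2 and were left out. The genes of the rule, such as Rgs5 and Higd1b, are more frequent inside it by construction. In SMA the 10 cells just inside held 944 CPM of Rgs5 and 512 CPM of Higd1b, and the 36 cells just outside 117 and 58.6 CPM. In Con the 30 cells inside held 429 and 322 CPM, and the 109 outside 98.2 and 63.4 CPM. Cells with 4 or more of the genes held 6645 CPM of Rgs5 in SMA and 4611 CPM in Con. Among genes that the rule did not read, Notch3 stood at 16.0 CPM inside and 34.2 CPM outside in SMA (1 and 7 UMIs), and at 37.9 and 12.7 CPM in Con. Myl9 stood at 96.0 and 53.7 CPM in SMA (6 and 11 UMIs) and at 524 and 130 CPM in Con, and Sparc at 1952 and 1319 CPM in SMA but at 1975 and 3277 CPM in Con. Ndufa4l2 stood at 80.0 and 24.4 CPM in SMA (5 and 5 UMIs) and at 158 and 44.3 CPM in Con, and Cox4i2 at 32.0 and 4.89 CPM in SMA (2 and 1 UMIs) and at 37.9 and 17.4 CPM in Con. Of these 5 genes, Myl9, Ndufa4l2 and Cox4i2 were higher inside in both libraries and Notch3 and Sparc in 1 library each, but apart from Sparc the SMA values rest on 1 to 11 UMIs. The Con values of Notch3 rest on 6 UMIs inside and 8 outside, and those of Cox4i2 on 6 and 11.

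Mural cells made up a smaller share of the SMA library. They were 1.59% of kept SMA cells (1.31 to 1.92) and 2.84% of kept Con cells (2.52 to 3.18), a log2 ratio of -0.83 (-1.15 to -0.52). Endothelial-like cells, on whose vessels mural cells sit, took 5.44% and 5.12%, with a log2 ratio of 0.09 (-0.10 to 0.27). Set against these cells, there were 0.293 mural cells per endothelial-like cell in SMA (0.234 to 0.364) and 0.554 in Con (0.479 to 0.641), a log2 ratio of -0.92 (-1.29 to -0.55). These are shares of cells that came through dissociation, not numbers in the tissue. Fibroblast-like cells were also a smaller share in SMA, 2.03% against 7.38%, while microglia-like cells were a larger one, 18.5% against 11.1%.

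After every cell was thinned to 1000 UMIs before the rule was applied, the log2 ratio of the share was -0.94 (-1.28 to -0.60). That left 95 mural among 6756 SMA cells and 240 among 8877 Con cells, after 31 SMA and 1379 Con cells of fewer UMIs were left out. The ratio depended on the shared barcodes. With those SMA barcodes kept, 196 further SMA cells met the rule and the log2 ratio was -0.31 (-0.54 to -0.08). In 185 of these 196 cells (94.4%) the Con cell of the same barcode met the rule too, the SMA copy held a median of 17.6% of the Con copy's UMIs, and Xist stood at 447 CPM in the 196 SMA cells, against 0 UMIs in the 108 SMA mural cells. Per endothelial-like cell the ratio with shared barcodes kept was -0.71 (-0.99 to -0.43).

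**Figure D2:**
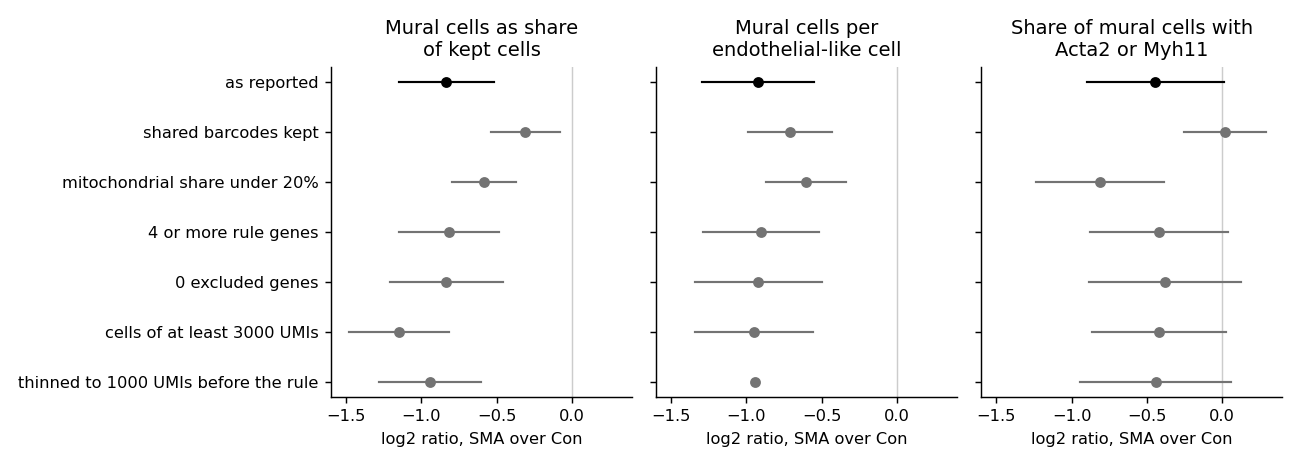
Log2 ratio of SMA over Con for mural cells as a share of kept cells, mural cells per endothelial-like cell, and the share of mural cells with a UMI of Acta2 or Myh11, with black for the values as reported and grey for other settings. Lines are 95% counting intervals (none computed for the thinned ratio per endothelial-like cell), and the first 2 panels lie below 0 at every setting shown while the third lies at 0.02 with shared barcodes kept.

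Within the mural cells, those with Kcnj8 or Higd1b and no UMI of Acta2 or Myh11 are called pericyte-like, and the reverse muscle-like. There were 75 pericyte-like, 2 muscle-like and 31 SMA cells with genes of both kinds, and in Con 164, 10 and 111, with 6 Con cells having neither. The rule asks for 3 of 9 genes, of which only Acta2 and Myh11 are muscle genes, so every mural cell held at least 1 of the other 7. These counts therefore do not say whether pericytes and smooth muscle are separate in these libraries. Muscle is described below by all mural cells with a UMI of Acta2 or Myh11, 33 in SMA and 121 in Con, called Acta2/Myh11 cells.

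Acta2/Myh11 cells were 30.6% of SMA mural cells (22.1 to 40.2) and 41.6% of Con mural cells (35.9 to 47.5), a log2 ratio of -0.44 whose interval reached 0 (-0.90 to 0.01). As a share of kept cells they were 0.486% and 1.18% (-1.28, -1.83 to -0.73), and pericyte-like cells were 1.11% and 1.6% (-0.53, -0.92 to -0.14). Both kinds were therefore fewer per kept cell in SMA with shared barcodes left out. Keeping those barcodes added 95 SMA cells with Acta2 or Myh11, and the share of each kind among kept cells was not computed in that setting. With shared barcodes kept, the share of mural cells with Acta2 or Myh11 had a log2 ratio of 0.02 (-0.26 to 0.29). Median depth was 6666 and 7231 UMIs in the Acta2/Myh11 cells and 4904 and 5303 UMIs in the pericyte-like cells.

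Cell by cell, the libraries differed at the end of high Acta2. Among cells with the gene, Acta2 ran from 1 through a median of 24 to 122 UMIs in the 33 SMA cells, and from 1 through 57 to 266 UMIs in the 120 Con cells. Cells with more UMIs of Acta2 than of Rgs5 numbered 9 in SMA (8.33% of mural cells, 3.88 to 15.2) and 76 in Con (26.1%, 21.2 to 31.6), a log2 ratio of -1.65 (-2.59 to -0.70). By a division chosen after the values were seen, cells with at least 10 times as many Acta2 as Rgs5 UMIs were 27 of 291 in Con (9.28%, 6.20 to 13.2) and 1 of 108 in SMA (0.926%, 0.0234 to 5.05), the SMA cell having 1 UMI of Acta2 and 0 of Rgs5. Rgs5 itself ran to 138 UMIs in SMA, with a median of 31 among cells with the gene, and to 131 in Con, with a median of 25.

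**Figure D3:**
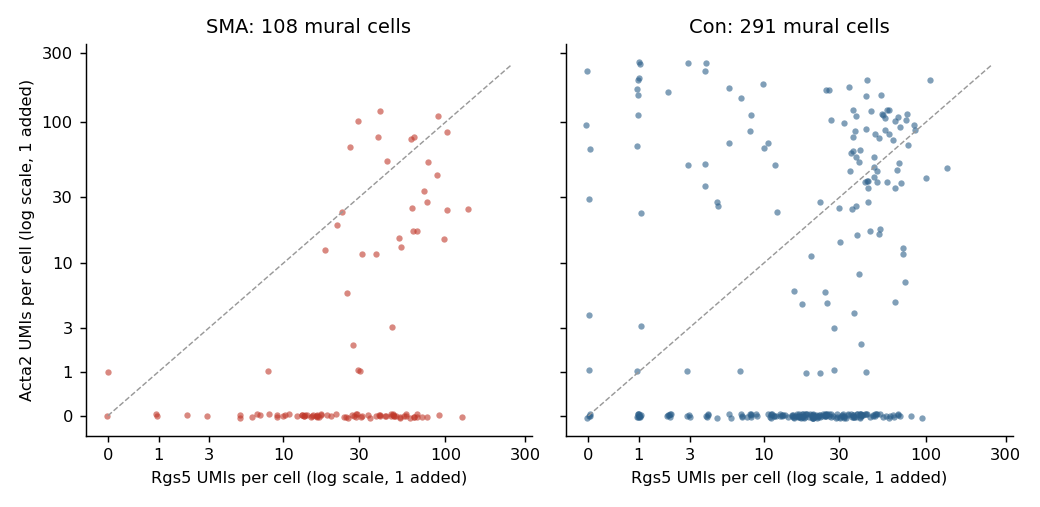
UMIs of Acta2 against UMIs of Rgs5 in each mural cell, on log scales with 1 added and a small jitter, for the 108 SMA and 291 Con cells. The dashed line marks equal UMIs, and the cells above it, with more UMIs of Acta2 than of Rgs5, are 76 in Con and 9 in SMA.

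Acta2/Myh11 cells were set beside pericyte-like cells in each library. Genes of the rule split the cells here, so the values are a description. The summed level of all 28 further contractile genes was 24466 CPM in the Acta2/Myh11 cells and 5185 CPM in the pericyte-like cells of Con, and 15165 and 4958 CPM in SMA. Of these genes, 17 of 18 measured were 2-fold or more higher in the Acta2/Myh11 cells of Con and 5 of 8 in SMA, against 5.04% and 4.91% of all genes. Members such as Actg2 reached the minimum of 100 UMIs through the Acta2/Myh11 cells alone, so nothing is read from these counts. Tagln was higher by 8.60 log2 in Con and 7.64 in SMA, and Tpm2, beta-tropomyosin, by 4.65 and 4.14. Mgp, an inhibitor of vessel calcification, was higher by 5.07 and 3.54, and the chemokine scavenger Ackr3 by 4.89 and 3.47. Actg2, the actin of visceral muscle, gave 273 UMIs in the Con Acta2/Myh11 cells and 0 in Con pericyte-like cells, and Eln (elastin), of the arterial wall, 288 and 7.

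In the other direction, genes with a higher level in pericyte-like cells are named by size alone. Among all genes, 6.33% in Con and 4.26% in SMA were 2-fold or more lower in the Acta2/Myh11 cells. Abcc9, the sulphonylurea receptor that forms a potassium channel with the product of Kcnj8, had a log2 ratio of -4.10 in Con and -4.06 in SMA. It is a gene of the rule, which pericyte-like cells met without Acta2 or Myh11, so the choice of cells favours this value and nothing is read from it. Cthrc1, a secreted collagen-related protein, had ratios of -3.17 and -4.18, and Sfrp2, a secreted modulator of Wnt signalling, -3.40 and -3.53. Itih5, a hyaluronan-associated protein, had -4.22 in Con, and the organic anion transporter Slc22a8 -3.73 in Con. C1qb and Ctss, genes of microglia, were also among the 10 lowest in Con, at -2.98 and -2.92, and had ratios of -0.31 (-0.75 to 0.13) and -0.06 (-0.68 to 0.54) in SMA. Oligodendrocyte markers also lay on the pericyte-like side, with 6 of 6 measured genes 2-fold or more lower in the Acta2/Myh11 cells of Con and 5 of 6 in SMA. The part of these other cell types in this comparison was not tested.

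Between SMA and Con, 45 of 3742 genes with at least 100 UMIs were 2-fold or more higher in SMA over all mural cells (1.2%) and 52 were lower (1.39%), with a median log2 ratio of -0.00 over all genes. In pericyte-like cells 1.24% of 2267 genes were higher and 0.794% lower, and in Acta2/Myh11 cells 1.54% of 1752 were higher and 2.23% lower. With 1 library per group these counts rest on size alone. The 52 lower genes numbered 16 with shared barcodes kept, 18 without cells carrying other cell types, 29 against Con cells with Y-linked UMIs and no Xist, 127 at a minimum of 50 UMIs and 19 at 300. The 45 higher genes numbered 12 without cells carrying other cell types, 27 with each cell weighted equally, 114 at a minimum of 50 UMIs and 13 at 300.

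Part of the contractile list was lower in SMA over all mural cells. There, 7 of 19 measured genes of the contractile list were 2-fold or more lower, 0 were higher, 16 lay below 0, and the median log2 ratio was -0.89. The summed level of all 28 listed genes was 8682 and 14252 CPM (-0.71, -0.76 to -0.67). Within Acta2/Myh11 cells 17 of 18 lay below 0, 3 were 2-fold or more lower and the median was -0.70, beside 2.23% lower and a median of -0.06 over all genes. The same limit holds for these counts. In pericyte-like cells 9 genes were measured, of which 0 were 2-fold or more lower, with a median of -0.23 and a ratio of the summed level of -0.065 (-0.14 to 0.0092), and the exception of more than 2-fold was Mustn1, at 163 against 72.0 CPM (1.18, 0.68 to 1.68).

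Acta2 (19:34241090-34255590, GRCm38) stood at 1775 CPM over SMA mural cells and 4693 CPM over Con mural cells, a log2 ratio of -1.40 (-1.49 to -1.32). Within Acta2/Myh11 cells it stood at 4865 and 9896 CPM, a ratio of -1.02 (-1.11 to -0.94). As Acta2 is a gene of the rule and defines these cells, both values depend in part on the choice of cells. The SMA cells reached 122 UMIs and the Con cells 266, and the ranges overlapped from 1 to 122 UMIs. Myh11 (16:14194535-14291372) gave 21 UMIs in SMA and 233 in Con, and 86.4 against 255 CPM within Acta2/Myh11 cells (-1.56, -2.28 to -0.92). A Myh11 UMI was found in 12% of SMA and 27.5% of Con mural cells and in 0 of 1258 and 0 of 1141 microglia-like cells, whose exact intervals reach 0.293% and 0.323%. Mural cells were chosen in part for having Myh11, and microglia-like cells in part for having few such genes, so these shares are a description. Over the settings tried, the ratio over all mural cells ran from -0.89 to -1.92 for Acta2 and from -1.16 to -2.34 for Myh11, the smallest gap in each case with shared barcodes kept. Outside the mural cells, Acta2 gave 1 UMI in SMA and 2352 UMIs in Con fibroblast-like cells (0.804 and 575 CPM), and 2.20 and 50.6 CPM over all other kept cells.

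Of the list itself, which the rule did not read, the thin-filament gene Tagln (9:45929619-45936058) stood at 2833 CPM in the SMA and 4774 CPM in the Con Acta2/Myh11 cells (-0.75, -0.87 to -0.64). Myl9 stood at 2348 and 5216 CPM there (-1.15, -1.28 to -1.03), but at 1271 and 1332 CPM in pericyte-like cells (-0.07, -0.22 to 0.08). Whether the kinds differ in this ratio was not tested. Tpm2 stood at 625 and 1576 CPM (-1.33, -1.58 to -1.09), and Pcp4l1 at 53.5 and 211 CPM (-1.98, -2.92 to -1.18). Cnn1, calponin, which sits on actin in mature smooth muscle, gave 0 UMIs in SMA and 75 in Con, at least 6.66-fold lower against a floor of 3 UMIs.

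Further genes of the apparatus ran from values near 0 to lower ones. Cald1, caldesmon, stood at 2315 and 2464 CPM in Acta2/Myh11 cells (-0.09, -0.23 to 0.04), and Mylk, the kinase that starts contraction by phosphorylating the light chain, at 206 and 225 CPM (-0.13, -0.60 to 0.33). Tpm1 had a ratio of -0.33 (-0.50 to -0.15) and Des, desmin, -0.74 (-1.40 to -0.14). The exception above 0 was Filip1l, a filamin-binding protein, at 288 and 184 CPM (0.65, 0.22 to 1.06). Myocd, myocardin itself, gave 1 UMI in SMA and 15 in Con, too few for a comparison.

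**Figure D4:**
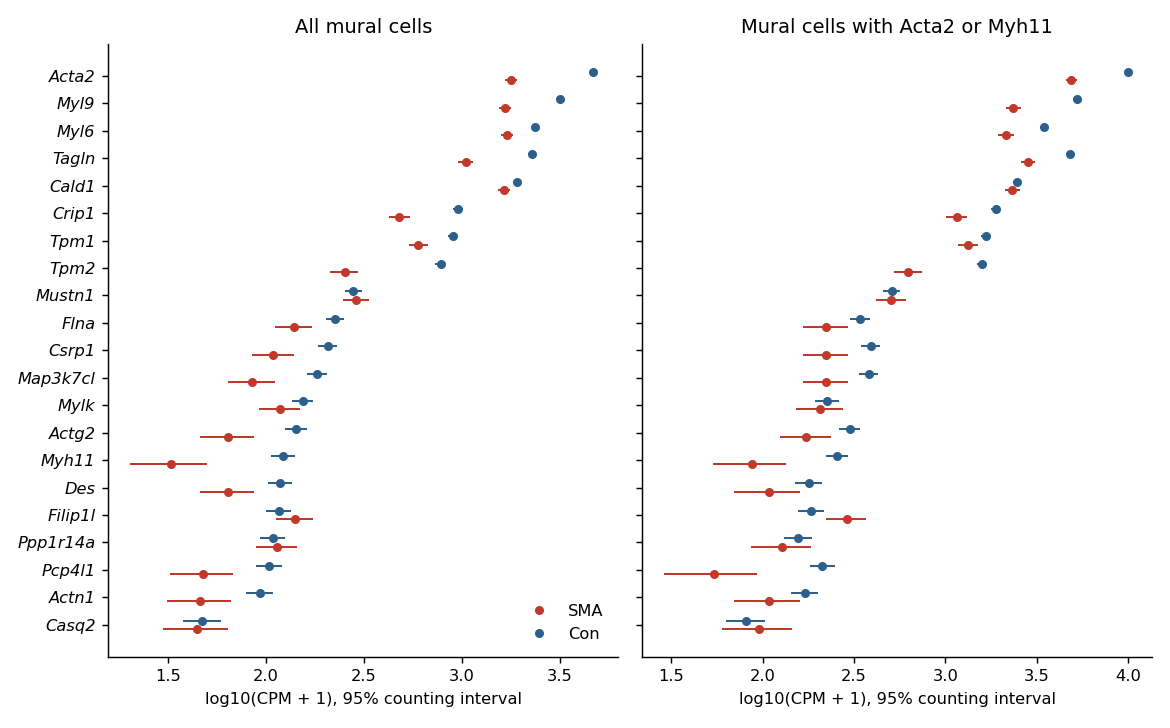
Level of Acta2, Myh11 and the 19 measured contractile genes as log10(CPM + 1), with 95% counting intervals, in SMA (red) and Con (blue), for all mural cells on the left and Acta2/Myh11 cells on the right. Red lies left of blue for most genes in both panels, with Filip1l the clearest exception on the right.

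The promoters of Acta2, Myl9, Cnn1 and Tpm2, 4 genes that were lower in SMA, are shown for the CArG box named above. They are the 250 bases before and 50 after the start in the RefSeq table for GRCm38.p6, read along the gene's strand, with boxes in capitals. Acta2 (chr19:34255324-34255623, minus strand) and Myl9 (chr2:156775214-156775513, plus strand) hold boxes, and Cnn1 (chr9:22099003-22099302, plus strand) and Tpm2 (chr4:43523505-43523804, minus strand) hold none in this window.
Acta2: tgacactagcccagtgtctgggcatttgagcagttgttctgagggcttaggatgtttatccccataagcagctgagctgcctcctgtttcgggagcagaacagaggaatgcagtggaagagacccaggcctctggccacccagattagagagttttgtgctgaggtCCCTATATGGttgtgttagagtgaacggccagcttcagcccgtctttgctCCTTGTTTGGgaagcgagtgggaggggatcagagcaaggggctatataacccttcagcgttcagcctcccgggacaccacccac
Myl9: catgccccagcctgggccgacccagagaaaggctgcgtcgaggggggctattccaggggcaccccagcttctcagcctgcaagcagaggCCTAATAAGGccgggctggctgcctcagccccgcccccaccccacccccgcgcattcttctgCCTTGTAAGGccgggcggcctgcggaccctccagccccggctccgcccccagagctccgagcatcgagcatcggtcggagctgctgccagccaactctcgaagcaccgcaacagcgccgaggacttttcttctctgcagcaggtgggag
Cnn1: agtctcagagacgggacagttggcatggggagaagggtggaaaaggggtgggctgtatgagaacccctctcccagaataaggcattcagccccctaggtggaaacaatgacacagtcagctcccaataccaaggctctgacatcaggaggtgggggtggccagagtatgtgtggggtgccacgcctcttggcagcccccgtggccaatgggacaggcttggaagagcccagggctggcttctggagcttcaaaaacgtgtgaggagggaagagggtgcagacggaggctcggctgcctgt
Tpm2: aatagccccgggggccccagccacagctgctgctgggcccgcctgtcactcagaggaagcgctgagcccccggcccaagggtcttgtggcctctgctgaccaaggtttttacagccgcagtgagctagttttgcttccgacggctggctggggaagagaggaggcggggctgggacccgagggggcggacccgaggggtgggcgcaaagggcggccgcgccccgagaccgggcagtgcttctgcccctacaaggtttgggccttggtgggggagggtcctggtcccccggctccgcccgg
The boxes of Acta2 begin 84 and 34 bases before the start and each differ by 1 base from the full motif. Those of Myl9 begin 161 bases before it, with the full motif, and 99 bases before it, with 1 base of difference. The motif reads alike on both strands. A full box was found in 3 of the 23 listed contractile genes with a sequence (13%) and in 1.81% of 27025 genes, and a full box or one with 1 base of difference in 5 (21.7%) and 11.3%. The 3 with a full box were Myl9, Myl6 and Filip1l, whose log2 ratios in Acta2/Myh11 cells were -1.15, -0.69 and 0.65, so they include the exception above 0. Of 23 further mural genes with a sequence, 0 held a full box and 2 (8.7%) one of either kind. These matches describe letters in a window and no binding was measured.

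The pericyte genes of the rule differed little. Kcnj8, the pore of an ATP-sensitive potassium channel, stood at 509 CPM in SMA and 463 CPM in Con mural cells (0.14, -0.05 to 0.32), and Abcc9, its partner, at 225 and 201 CPM (0.16, -0.12 to 0.44). Higd1b, a mitochondrial protein of pericytes, stood at 1631 and 1473 CPM (0.15, 0.04 to 0.25), and Pdgfrb at 339 and 312 CPM (0.12, -0.11 to 0.34). Rgs5 was the exception, at 6111 and 4267 CPM (0.52, 0.46 to 0.57), and was higher in SMA within pericyte-like cells (0.42, 0.35 to 0.50) and within Acta2/Myh11 cells (0.64, 0.56 to 0.72). Vtn, vitronectin, an adhesion protein that pericytes secrete, stood at 3245 and 3759 CPM (-0.21, -0.28 to -0.14), a direction that turned against Con cells with Y-linked UMIs and no Xist. As cells were chosen for having these genes, their levels depend in part on the choice.

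Of the 30 further mural genes, 26 were measured over all mural cells, of which 0 were 2-fold apart, 10 lay above and 16 below 0, and the median log2 ratio was -0.09. In pericyte-like cells 1 of 23 was 2-fold or more lower, S1pr3, a receptor for sphingosine 1-phosphate (-1.08, -1.83 to -0.39). In Acta2/Myh11 cells 2 of 19 were, Rgs4, of the family of Rgs5 (-1.17, -1.82 to -0.58), and the transporter gene Slc38a11 (-1.05, -1.97 to -0.24). Of all genes, 0.794% were 2-fold or more lower in pericyte-like and 2.23% in Acta2/Myh11 cells. Notch3, the receptor that mural cells use to read endothelial Notch ligands, stood at 182 and 184 CPM (-0.02, -0.33 to 0.28), and the proteoglycan Cspg4 (NG2) at 152 and 152 CPM (-0.01, -0.35 to 0.33). Lowest was Gja4, the gap junction protein connexin 37, at 351 and 594 CPM (-0.76, -0.97 to -0.55). It stood at 559 and 1002 CPM in Acta2/Myh11 cells (-0.84, -1.11 to -0.58) and at 231 and 234 CPM in pericyte-like cells (-0.01, -0.37 to 0.34). Cox4i2, a subunit of cytochrome oxidase found in pericytes, had a ratio of -0.94 (-1.29 to -0.61) in pericyte-like cells and 0.48 (-0.09 to 1.02) in Acta2/Myh11 cells. Highest was Ifitm1, an interferon-induced membrane protein, at 593 and 367 CPM (0.69, 0.51 to 0.87).

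Basement membrane genes lay close to 0, while elastin was far lower in SMA. Of 11 basement membrane genes measured, 0 were 2-fold apart and the median was 0.02. The collagen IV chains stood at 875 and 901 CPM for Col4a1 (-0.04, -0.18 to 0.09) and 588 and 542 CPM for Col4a2 (0.12, -0.05 to 0.29), and Sparc, which binds collagen, at 2566 and 2704 CPM (-0.08, -0.16 to 0.00). Of 9 fibrillar matrix genes 1 was 2-fold or more higher, 1 was lower, and the median was 0.01. Of all genes 1.2% were higher and 1.39% lower. Without cells carrying other types' genes the fibrillar matrix median fell below 0. Eln (5:134702593-134747323) was the lower, with 9 UMIs in 8 SMA cells and 295 UMIs in 38 Con cells (-3.50, -4.65 to -2.56). Of cells with more Acta2 than Rgs5 UMIs, 1 of 9 in SMA and 30 of 76 in Con held Eln, with at most 1 UMI in SMA and 41 in Con. Rgs5 had 27 to 88 UMIs (median 42.5) in 8 of the 9 SMA cells and 1 to 104 UMIs (median 34.5) in 70 of the 76 Con cells. The 4 Con cells with most Eln (41, 30, 27 and 25 UMIs) had 1, 1, 1 and 0 UMIs of Rgs5. Whether the groups hold different kinds of cells was not tested. Eln was lower in SMA outside the mural cells as well, by -2.07 in endothelial-like cells and -1.78 in fibroblast-like cells.

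Col1a1, the higher one, gave 70 UMIs in 9 SMA cells and 76 in 23 Con cells (1.41, 0.92 to 1.90), with 28.6% of the SMA UMIs in 1 cell. Col3a1 had a ratio of 1.65 (1.32 to 1.97) in Acta2/Myh11 cells and -0.09 (-0.43 to 0.25) in pericyte-like cells. The fibroblast list, which holds both collagens, summed to 1431 and 714 CPM in Acta2/Myh11 cells, and its part in these ratios was not tested. Bgn, the proteoglycan biglycan, was lower in both, at -0.91 (-1.26 to -0.58) and -0.59 (-0.85 to -0.33). Tinagl1, a basement membrane glycoprotein named by size of change alone, gave 24 UMIs in SMA and 442 in Con Acta2/Myh11 cells (-2.29, -2.95 to -1.70). Ptgis, prostacyclin synthase, gave 3 and 97 UMIs over all mural cells (-3.48, -5.79 to -1.89).

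Genes through which mural cells and endothelium signal did not move as a group. Of 20 measured, 0 were 2-fold or more higher, 1 was lower, against 1.39% of all genes, and the median was -0.08. Ptn, pleiotrophin, a secreted growth factor, carried most UMIs and stood at 5542 and 3260 CPM in pericyte-like cells (0.77, 0.69 to 0.84) against 1731 and 1558 CPM in Acta2/Myh11 cells (0.15, -0.01 to 0.31). The summed level of the list, of which Ptn was the largest part, had a ratio of 0.40, opposite in sign to the median. The lower gene was Tgfb2, a transforming growth factor beta, at 37.5 and 89.3 CPM (-1.25, -1.92 to -0.64). The Notch targets had ratios of -0.63 (Heyl, -1.11 to -0.19) and 0.34 (Hes1, 0.05 to 0.63).

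Receptors and enzymes of vessel tone showed 0 of 11 genes 2-fold apart and a median of -0.04. Ednra, the endothelin A receptor, stood at 117 and 120 CPM (-0.04, -0.43 to 0.33), and Ednrb, the B receptor, at 180 and 97.7 CPM in pericyte-like cells (0.88, 0.42 to 1.33). Gucy1a1 and Gucy1b1, the subunits of the nitric oxide receptor, had ratios of 0.44 (0.18 to 0.70) and -0.05 (-0.35 to 0.24). Pde3a, a cyclic nucleotide phosphodiesterase, had -0.74 (-1.30 to -0.22). Of 12 channels and transporters 0 were 2-fold apart over all mural cells, with a median of 0.10, but in Acta2/Myh11 cells 4 of 4 lay below 0, with a median of -0.52.

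Among genes spread over at least 10% of cells with no cell holding over 25% of the UMIs, the highest ratio over all mural cells was that of Cdkn1a (17:29090976-29100727), which encodes p21, an inhibitor of the cell cycle that p53 induces. It gave 144 UMIs in 33 SMA cells and 71 UMIs in 43 Con cells, or 216 against 36.9 CPM (2.55, 2.13 to 2.98). In Acta2/Myh11 cells it stood at 436 and 40.5 CPM (3.43, 2.87 to 4.01), with a UMI in 60.6% and 22.3% of cells, and in pericyte-like cells, with 38 and 34 UMIs and so under the minimum of 100, at 89.8 and 35.0 CPM (1.36, 0.65 to 2.07). The highest SMA cell held 25 UMIs and the highest Con cell 5. Cdkn1a was also higher in SMA in endothelial-like cells (1.55), fibroblast-like cells (0.95) and microglia-like cells (0.65).

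Of the p53 targets, 4 were measured over all mural cells, Cdkn1a included, and the median was 0.88. The other 3, Phlda3, Rps27l and Bax, were above 0, and 1 of them was 2-fold or more higher. Of all genes 1.2% were 2-fold or more higher, with a median of -0.00. Phlda3, a p53-induced inhibitor of Akt, stood at 73.5 and 30.6 CPM (1.26, 0.69 to 1.83), and Bax, which permeabilises mitochondria, at 416 and 303 CPM (0.46, 0.25 to 0.67). In pericyte-like cells the ratios of Rps27l and Bax were 0.30 and 0.10, and in Acta2/Myh11 cells 0.79 and 0.89. Mdm2, the p53 antagonist, gave 29 UMIs in SMA and 43 in Con over all mural cells, under the minimum of 100.

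Hist1h2bc, an H2B histone, and the metallothioneins Mt1 and Mt3 were 2-fold or more higher in SMA in pericyte-like and in Acta2/Myh11 cells, and were named by size of change alone. Hist1h2bc had 58.7% of SMA and 24.4% of Con pericyte-like cells with a UMI (385 and 66.9 CPM, 2.53, 2.10 to 2.96). In Acta2/Myh11 cells its ratio was 1.56 (0.97 to 2.13), and it was 2.96 in endothelial-like and 2.03 in microglia-like cells. Other histone genes were uneven over all mural cells, with Hist1h1c at 1.47 (0.96 to 1.97) but -0.084 (18 UMIs) without cells carrying other cell types, and Hist1h1b at -0.72 (-1.32 to -0.16). Mt3, Mt2 and Mt1 encode small proteins that bind zinc and copper, and in pericyte-like cells their ratios were 2.44 (2.15 to 2.74; 1.16 in Acta2/Myh11 cells), 1.71 (1.19 to 2.24) and 1.33 (1.14 to 1.52). Mt1 stood at 1122 CPM in SMA and 446 CPM in Con pericyte-like cells and had a ratio of 1.11 (0.86 to 1.36) in Acta2/Myh11 cells. The ratio of Mt1 was 0.75 in endothelial-like, 0.70 in microglia-like and -0.00 in fibroblast-like cells and 0.81 in all other kept cells, and that of Mt3 was 0.64, 0.87, 1.25 and 1.27.

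Of the remaining genes ranked highest in pericyte-like cells, Dbi, the acyl-CoA binding protein, stood at 3942 and 1659 CPM (1.25, 1.15 to 1.35) and had a ratio of -0.04 (-0.21 to 0.13) in Acta2/Myh11 cells. The ratio of Dbi was 1.06 in fibroblast-like, 0.36 in microglia-like and 0.30 in endothelial-like cells and 0.70 in all other kept cells. The summed level of the astrocyte list had ratios of 0.74 (0.65 to 0.83) in pericyte-like and 0.13 (-0.03 to 0.29) in Acta2/Myh11 cells, and its part in the values of Dbi was not tested. Car4, a membrane carbonic anhydrase, stood at 588 and 255 CPM (1.21, 0.95 to 1.46) and was 0.01 (-0.11 to 0.13) in endothelial-like cells. Among the lowest in pericyte-like cells were Tubb6, a beta-tubulin (18.9 and 116 CPM, -2.62, -3.87 to -1.59), Tuba1b, an alpha-tubulin (-1.20, -1.46 to -0.95), and Lgals1, galectin 1 (-1.27, -1.65 to -0.90). Haemoglobin transcripts were also lower, with a summed ratio of -1.30 (-1.33 to -1.26) over the list in pericyte-like cells and -0.31 (-0.35 to -0.27) in Acta2/Myh11 cells.

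Immediate early genes, which respond within minutes to stimulation or to dissociation of tissue, had 0 of 18 genes 2-fold apart over all mural cells, with 15 above 0 and a median of 0.29. In pericyte-like cells 0 of 17 were 2-fold apart and 12 lay above 0. In Acta2/Myh11 cells 17 of 18 lay above 0, 2 by 2-fold or more, with a median of 0.58. Of all genes in these cells 1.54% were 2-fold or more higher, and their median was -0.06. Fos stood at 4100 and 2350 CPM there (0.80, 0.69 to 0.91) and Egr1 at 543 and 269 CPM (1.01, 0.69 to 1.32). Dusp1, a phosphatase of the same response, was the exception at -0.11 (-0.47 to 0.23).

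Inflammatory genes were uneven and rested on few cells. Over all mural cells 2 of 10 were 2-fold or more higher, with a median of 0.22. Cxcl1, a neutrophil chemokine, had a UMI in 20 SMA and 70 Con cells (309 and 136 CPM, 1.19, 0.92 to 1.46), with 28.6% of the SMA UMIs in 1 cell. Ccl4, a macrophage chemokine, had UMIs in 16 and 23 cells (1.06, 0.77 to 1.34), with 28.1% and 30.0% in 1 cell. Cebpd, a transcription factor of the acute phase, was more widespread, in 57.4% and 43.6% of cells (0.95, 0.68 to 1.21).

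Of 11 glycolysis genes 8 lay below 0 with a median of -0.27, among them Pfkl, the 1 gene 2-fold lower, Gapdh (-0.40, -0.51 to -0.30) and Pkm (-0.71, -0.94 to -0.50), while Aldoc lay above (0.96, 0.75 to 1.16). Nuclear oxidative phosphorylation genes had a median of 0.06 over 77, ribosomal protein genes 0.02 over 80 and mitochondrially encoded genes 0.04 over 12. Of 15 cell cycle genes 2 were 2-fold or more lower, Mcm6 (-1.40, -2.28 to -0.61) and Tyms (-1.35, -2.00 to -0.76), and the median was -0.23. In pericyte-like cells 8 of 10 cell cycle genes lay below 0, 1 by 2-fold or more, with a median of -0.35, and the summed level of the list had a ratio of -0.38 (-0.50 to -0.25). Of 6 hypoxia genes 0 were 2-fold apart (median 0.05), and of 3 genes of the SMN complex 0 (median -0.05). The vascular genes that the study picked from these same libraries, which are not independent evidence, had 3 of 11 higher and 1 lower, with a median of 0.05. Beside these lists, 1.2% of all genes over all mural cells were 2-fold or more higher and 1.39% lower, with a median of -0.00. In pericyte-like cells 0.794% of all genes were lower and the median was 0.01.

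**Figure D5:**
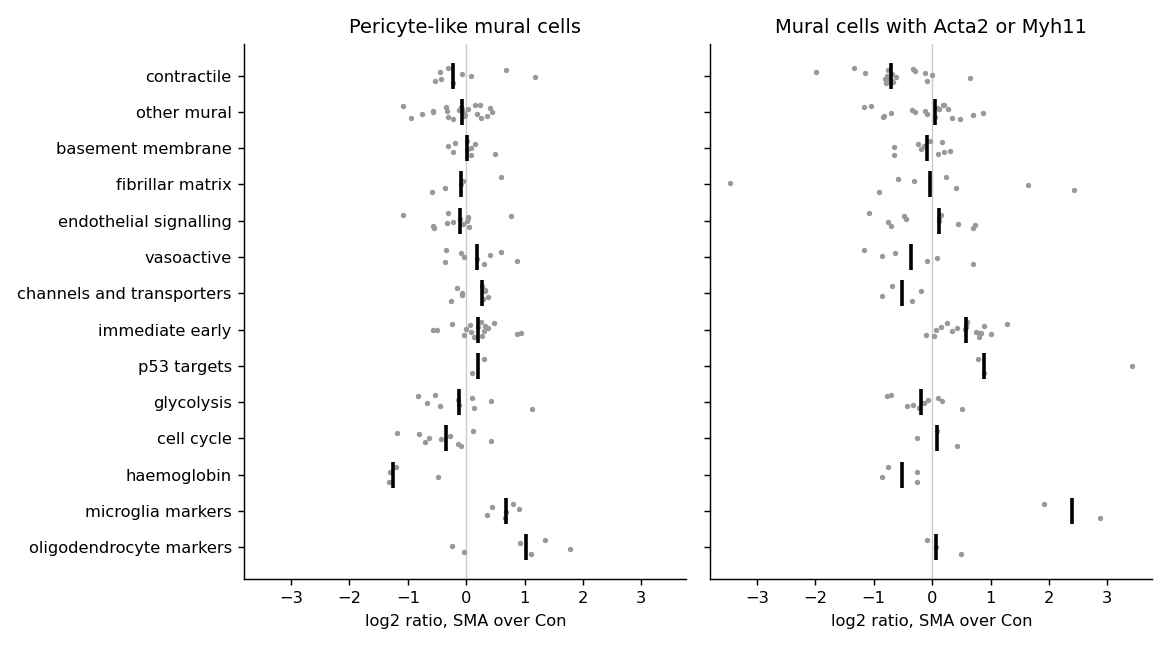
Log2 ratio of SMA over Con for the genes with at least 100 UMIs in each of 14 lists (grey points, spread vertically for legibility), with a black bar at the list's median, in pericyte-like cells and in Acta2/Myh11 cells. Contractile genes lie mostly below 0 on the right (median -0.70) and nearer to 0 on the left (-0.23), and immediate early genes lie mostly above 0 on the right (0.58).

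RNA of other cell types was present in the mural cells of both libraries. UMIs of 3 or more genes of any of 6 lists (microglia, oligodendrocytes, oligodendrocyte precursors, astrocytes, Schwann cells, neurons) were held by 79 of 108 SMA (73.1%) and 212 of 291 Con cells (72.9%). For microglia alone the shares were 21.3% and 12.4%, for oligodendrocytes 25.9% and 41.2%, and for astrocytes 49.1% and 50.2%. The summed level of the 10 microglial genes was 1628 and 885 CPM over all mural cells (0.88, 0.77 to 0.99), with C1qa, a complement subunit, in 27.8% and 16.5% of cells. In Acta2/Myh11 cells it was 1184 and 200 CPM (2.56, 2.29 to 2.84), with 44.8% of the SMA and 51.0% of the Con C1qa UMIs in 1 cell. The oligodendrocyte list had 4166 and 2704 CPM (0.62, 0.56 to 0.69) and the astrocyte list 3062 and 2110 CPM (0.54, 0.46 to 0.61).

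Their part in the results above was not tested beyond leaving such cells out. With the 29 SMA and 79 Con cells that carried none of these lists, Acta2 had a ratio of -0.94, Tagln -0.97, Eln -5.28, Cdkn1a 1.81, Hist1h2bc 1.66 and Mt3 2.81, each in the same direction as over all mural cells. No intervals are given for these ratios, which rest on few SMA cells. Eln gave 9 UMIs over all SMA mural cells, so its ratio here rests on at most 9. Against the 61 Con cells with a Y-linked UMI and no Xist, the ratios were -1.92 for Acta2, -1.79 for Tagln, -4.46 for Eln, 1.94 for Cdkn1a and 2.66 for Mt3.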

How the data were processed

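Spinal cord cells of 2 pools, 1 per group, were captured on the 10x 3′ platform (version 3 chemistry), and the authors deposited UMI counts per gene and barcode for 32285 genes, made with Cell Ranger 4.0.0 per the file headers on mm10 (the methods name another version). Seurat 3.2.2 is named in the submitters' processing notes and its output was not used here. No cell annotation was used, and cells were chosen by the UMI rule given in the report. Endothelial-, fibroblast- and microglia-like cells were non-mural cells with UMIs of 3 or more markers of their type. They held UMIs of at most 1 gene from a set for other types, which included Acta2 and Myh11. Doublets were limited by the 4000-gene limit and the excluded genes, with no caller run. Cells were kept at 200 to 4000 genes and under 10% mitochondrial UMIs, and SMA barcodes also listed in Con were left out.

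UMIs were summed over cells per library, scaled to CPM and compared as log2 ratios with exact conditional binomial intervals. Shares have Clopper-Pearson intervals and levels Poisson intervals, all at 95% and all covering counting error only. A list counts genes with at least 100 UMIs over both libraries and calls those 2-fold or more apart. A gene at 0 was set against a floor of 3 UMIs. With 1 library per group there was no test and no p-value. Calculations used Python 3.11.15, numpy 2.4.6, scipy 1.17.1 and pandas 2.3.3, and were tested on simulated data.

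The members, gene lists and comparisons were chosen with earlier results of these data known. Genes named were those of the rule, list genes with most UMIs or extreme ratios, and the 10 highest and 10 lowest per comparison among genes in at least 10% of cells with no cell over 25% of the UMIs. Others, such as Mylk, Myocd and Mdm2, were named for their role after their values were seen. Alternatives were other cell limits, gene minimums, weights and subsets. Leaving out cells that carry other types' genes, the Con cells with Y-linked UMIs only, and the subset-only settings were chosen after seeing the data. Single-gene values of some list members are not reported here, though list counts, medians and sums include them. The 3′ UMIs of a gene do not separate overlapping genes or near-identical copies.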

Additional observations from a re-analysis of the deposited data

Results flagged for a closer look

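Cells outside the limits that also met the mural rule are given as values, since they were left out of the values as reported. Those of shared barcodes entered only the setting that kept such barcodes, and those of high mitochondrial share, where it was under 20%, only the setting with that limit. Among SMA barcodes also listed in Con, 196 cells met the rule, with a median of 1367 UMIs, 48.5% with Acta2 or Myh11, 4063 CPM of Acta2, 447 CPM of Xist and 30.0 CPM of Cdkn1a. At a mitochondrial share of 10% or more, 207 SMA cells (median 2203 UMIs) and 395 Con cells (median 2293 UMIs) met it. Of these, 14 SMA cells (6.76%) and 74 Con cells (18.7%) held Acta2 or Myh11, Acta2 stood at 259 and 1504 CPM, and Cdkn1a at 75.7 and 16.7 CPM. Above 4000 genes, 14 SMA and 23 Con cells met it, of which 5 (35.7%, 12.8 to 64.9) and 12 (52.2%, 30.6 to 73.2) held Acta2 or Myh11. Over all cells above 4000 genes, Acta2 stood at 2133 and 1750 CPM and Cdkn1a at 118 and 19.9 CPM. The order of the libraries for the Acta2 level above 4000 genes was thus opposite to that in the mural cells, and in the cells of high mitochondrial share it was the same. For the share of cells with Acta2 or Myh11, the order was the same as in the mural cells in both.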

How the results depend on the processing

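No paired analysis was possible because each group was 1 library. Of the main results, 247 values under alternatives stayed within the error or 1.5 times the count, 49 moved and 1 reversed, and of single genes 448 stayed, 108 moved and 4 reversed. The cause of these changes was not tested. With shared barcodes kept, the log2 ratio of the mural share was -0.31, that of the pericyte-like share of mural cells reversed from 0.30 to -0.020, that of the share with Acta2 or Myh11 was 0.018, and genes 2-fold lower numbered 16 over all mural cells and 8 in pericyte-like cells. With 4 or more rule genes, list medians were 0.64 (chemokines), 0.54 (p53 targets) and 0.46 (the study's vascular genes). With 0 excluded genes the last was 0.35 and 5 genes were lower in pericyte-like cells, and with cells of at least 3000 UMIs the p53 median was 0.54. With each cell weighted equally, 27 genes were higher over all mural cells and 17 in pericyte-like cells, and Ndufa4l2 reversed to 0.048. At a minimum of 50 UMIs, 114 genes were higher and 127 lower over all mural cells and 68 and 71 in pericyte-like cells, at 300 UMIs 13 and 19, and 10 and 8, and with no minimum beyond 1 UMI per library 1619 and 850, and 1739 and 927. At 300 UMIs, 20 genes were higher and 36 lower in muscle-like than in pericyte-like Con cells (88 and 217 at 100 UMIs), and 558 and 1672 in SMA mural cells against other kept cells. With cells of both kinds counted as muscle-like, 145 were higher in Con.

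Without cells carrying other types, 12 genes were higher and 18 lower, medians were -0.65 (fibrillar matrix), -0.34 (channels), 1.07 (chemokines), -0.34 (hypoxia) and 0.19 (ribosomal), and Hist1h1c reversed to -0.084. Against Con cells with Y-linked UMIs and no Xist, 29 genes were lower, medians were -0.22 (vascular genes) and -0.039 (mitochondrially encoded), and Vtn reversed to 0.13 and Ndufa4l2 to 0.011. In Acta2/Myh11 cells alone, 27 genes were higher and medians were -0.52 (channels), 0.58 (immediate early), 0.47 (vascular genes), 0.19 (ribosomal) and -0.11 (mitochondrially encoded). In pericyte-like cells alone they were -0.23 (contractile), 0.20 (p53 targets), -0.23 (vascular genes) and -0.10 (ribosomal). At the depth of these libraries Myocd gave too few UMIs for a comparison, and the 33 SMA cells with Acta2 or Myh11 bound every value within that kind.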
